A study of Nasonia vitripennis and Nasonia giraulti with 12 samples.

Results

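Adult females of a pair of closely related jewel wasps, Nasonia giraulti and Nasonia vitripennis, were compared by messenger RNA sequencing of whole bodies. The comparison used 6 of the 12 libraries of the series, chosen by the species and sex in their labels: 3 of N. giraulti females (strain R16A) and 3 of N. vitripennis females (strain AsymCX). All were collected 24 h after the adults left the pupal case, and each library was made from the RNA of 10 pooled animals. No treatment was applied. The other 6 libraries were males of the same strains and age, 3 per species, and were used to ask whether a difference seen in females was also present in males. A single strain stood for each species, so a strain difference and a species difference cannot be told apart.

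Nasonia wasps are parasitoids: an adult female drills into the puparium of a fly, injects venom into the pupa and lays eggs on it. Females carry the ovaries and the venom apparatus and search for hosts, and they are diploid, whereas males hatch from unfertilised eggs and are haploid. N. vitripennis uses many kinds of fly hosts and N. giraulti mainly those in bird nests, and the species can be crossed once cured of their Wolbachia bacteria. Genes are given here by the identifiers of the deposited table, none of which occurs in the name table used here, so the function of a gene, its position and its sequence are not stated, and marker genes of tissues could not be checked.

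The table held a read count for 24337 genes in each library. Female libraries had totals of 32463168 to 39045479 counts in N. giraulti and 24516522 to 47509108 in N. vitripennis, and the pooled depth of the groups was close, at 106454819 counts in N. giraulti and 101536464 in N. vitripennis. A level of at least 1 CPM (the reads of a gene scaled to the same library depth) was reached by 12263 genes in N. giraulti females and by 12131 in N. vitripennis females. Of these genes, 11378 reached it in both, 885 in N. giraulti females and not in N. vitripennis females, and 753 the other way. No female library held a read of 1430 genes.

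Species was the main axis of difference among the female libraries. The first principal component of the log2 CPM of 14776 tested genes took 74.5% of the variance, with 99.7% of the scores' spread between the species. The second component took 15.5%, of which 98.9% lay between the replicate numbers: the libraries numbered 1 stood apart from those numbered 2 and 3 in both species. Libraries of the same species correlated across genes with Pearson r of 0.968 to 0.99 in N. giraulti and 0.959 to 0.979 in N. vitripennis, and libraries of different species with r of 0.853 to 0.884. In the typical gene the ranges met, however. The median absolute log2 difference was 0.224 to 0.431 between N. giraulti libraries and 0.333 to 0.556 between N. vitripennis libraries, against 0.455 to 0.845 between libraries of different species. The spread among N. giraulti females, as a biological coefficient of variation of 29.4%, was below the 36.2% among N. vitripennis females. Over the 6 libraries it was 33%, and 20.4% with the replicate number in the fit, so it includes the difference between replicate numbers.

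**Figure D1:**
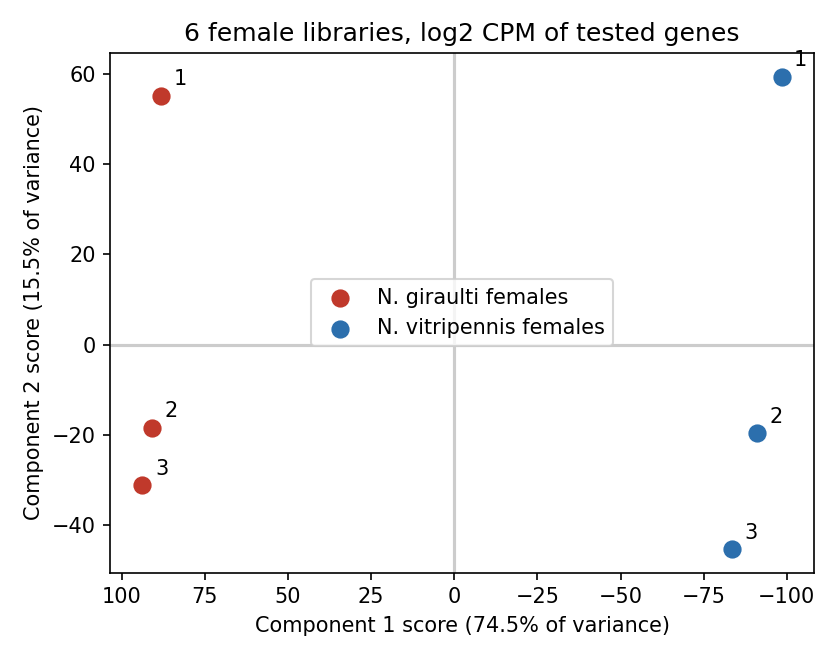
Scores of the 6 female libraries on the first 2 principal components of log2 CPM (axes in score units, share of variance in the labels; the horizontal axis runs from high to low scores). Points are libraries with their replicate number. The species part along component 1 (74.5%) and the libraries numbered 1 lie above those numbered 2 and 3 in both species along component 2 (15.5%).

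The direct comparison asked which genes females of the species express at different levels. In N. giraulti females 1923 genes were higher and 1616 were lower than in N. vitripennis females (edgeR's quasi-likelihood test, n = 3 pools per species, called where the p adjusted after Benjamini and Hochberg was under 0.05). Together these are 24% of the 14776 genes tested, 13% higher and 10.9% lower. In 3210 tested genes every N. giraulti library lay above every N. vitripennis library, 21.7% of those tested, and in 2782 genes, 18.8%, every one lay below. The remaining tested genes overlapped between the species. As whole bodies were measured, a lower level of a gene cannot be told apart from fewer cells of the type that expresses it.

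The replicate numbers behaved as pairs in these libraries. With the number as a block, 3308 genes were called higher and 3090 called lower, 43.3% of those tested, and 1909 of the 1923 and 1601 of the 1616 calls were among them. The balance of directions moved with the libraries used for scaling. Among the calls 54.3% were higher in N. giraulti with factors from the 6 female libraries, and 52.3% to 55.9% with the other scalings of the female libraries tried. When the scaling, the filter and the fit came from all 12 libraries, 2065 genes were higher and 3042 lower, a share of 40.4% higher, and the median log2 fold change over all genes tested moved to -0.20. With the scaling factors of all 12 libraries alone, and the filter and fit of the 6 female libraries, 1578 genes were called higher and 2214 called lower (41.6% higher), with a median of -0.21. With factors from the 6 female libraries the median was -0.01, and the differences below are relative to that.

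Most genes differed little between the species. The median absolute log2 fold change over all genes tested was 0.48, and 73% of genes lay within a 2-fold difference. Of the genes called, 1737 were at least 2-fold higher and 1389 at least 2-fold lower in N. giraulti females. The balance turned with the size of the difference. Differences of 10-fold or more comprised 471 higher and 600 lower genes, together 7.25% of those tested, and differences of 100-fold or more comprised 83 higher and 216 lower genes, so the share of higher genes was 55.6%, 44% and 27.8% at these sizes. With all 12 libraries in the fit, lower genes outnumbered higher ones already at 2-fold (1819 higher, 2154 lower) and also at 10-fold (503 and 855). Fitted folds of genes without reads in a group depend on a small added count. When folds were taken from pooled reads instead, with the lower group set to at least 3 reads over its libraries, 482 genes were at least 10-fold higher and 611 at least 10-fold lower, and 45 and 126 were at least 100-fold apart. In males, whose libraries are separate, the share of higher genes among the calls also fell with size, at 46.5% of all calls, 38.1% of those at least 10-fold apart and 20.7% of those at least 100-fold apart.

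**Figure D2:**
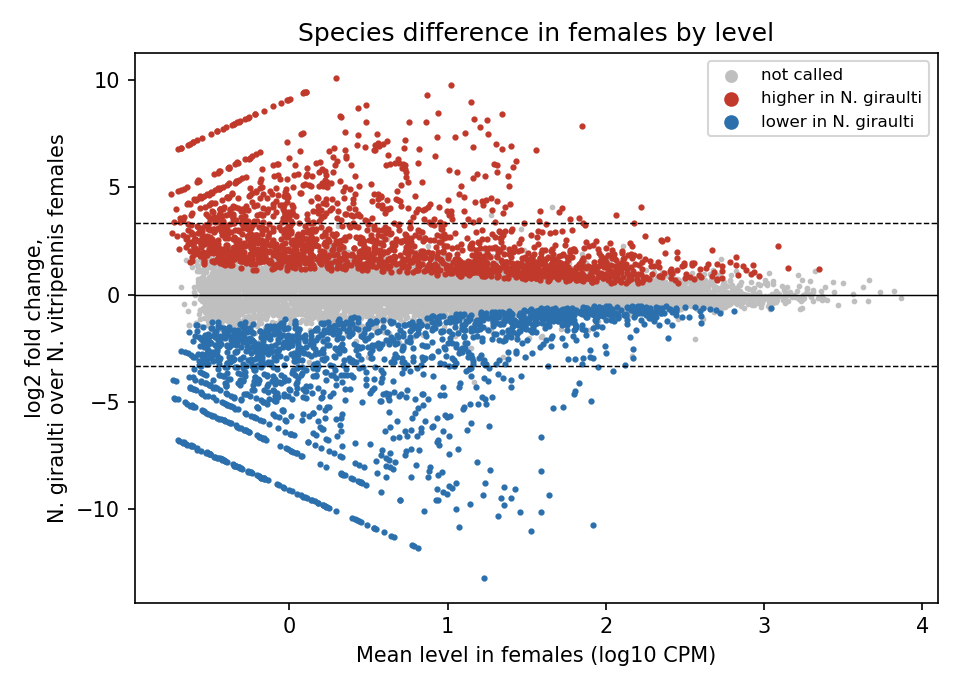
Log2 ratio of the fitted levels, N. giraulti over N. vitripennis females, against the mean level in females (log10 CPM) for the 14776 genes tested; red and blue points are genes called higher and lower in N. giraulti, grey points were not called, and dashed lines mark 10-fold. Points that line up in diagonals at the left have few or no reads in a species; 471 called genes lie above the upper and 600 below the lower dashed line.

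Called genes carried a small part of the messenger RNA. Genes called higher took 8.97% ± 0.234 of all counts in N. giraulti females and 3.56% ± 0.421 in N. vitripennis females (SD, n = 3 each), and genes called lower took 2.6% ± 0.157 in N. giraulti and 5.71% ± 0.355 in N. vitripennis. These shares describe genes picked on the same libraries and are no test.

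The most abundant genes were largely the same in both species. Of the 10 genes with the highest mean level in each, 8 were shared, and none of the 12 genes in either list passed the test. Of the 100 most abundant, 83 were shared. The 117 genes in either list of 100 held 9 called higher and 1 called lower in N. giraulti females, 8.55% of them, against 24% of all genes tested. In the union of both lists of 1000, 96 of 1155 genes were higher and 65 lower. The excess of higher genes in the lists of 100 had the same direction under the 3 other scalings of the female libraries, with the replicate block, in the fit of all 12 libraries and in replicates 2 and 3 alone. In the lists of 1000 it turned with all 12 libraries in the fit (73 higher, 207 lower) and with the replicate block (206 and 245).

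At the other end were genes that females of a single species expressed. With a mean level of 1 CPM or more in the expressing species and at most 3 reads over the 3 libraries of the other, 50 genes were on in N. giraulti females and near 0 in N. vitripennis females, and 162 were on in N. vitripennis females and near 0 in N. giraulti females. The silent species had 0 reads in all 3 libraries for 16 of the 50 and for 59 of the 162. Levels where such genes were on were mostly low, with a median of 1.85 CPM for the 50 and 2.68 CPM for the 162, and highest values of 21.1 and 67.2 CPM. Only 2 of the 50 and 18 of the 162 reached 10 CPM. The count of 50 depended on single libraries, since a limit of 3 reads is easier to meet with less depth: it was 106 without replicate 1 of the N. vitripennis females, the deepest female library, 77 without replicate 2 and 80 without replicate 3. The corresponding range for the 162 was 164 to 220, so N. vitripennis females kept the larger number. All reads were counted on a single gene set whose identifiers are shared by the species, and the part of alignment in these counts was not tested.

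Males of the silent species were near 0 for most of these genes, a share that did not exceed that of all genes near 0 in the same females. Of the 162 genes near 0 in N. giraulti females, 102 (63%) also had at most 3 reads over the 3 N. giraulti male libraries, 58 had more reads but stayed under 1 CPM, and 2 (1.23%) reached 1 CPM. Among all 5814 genes at or under 3 reads in N. giraulti females, the shares were 79.1% near 0 and 0.877% at 1 CPM or more in N. giraulti males. Of the 50 genes near 0 in N. vitripennis females, 28 (56%) were near 0 in N. vitripennis males and 2 (4%) reached 1 CPM, where all 5507 genes at or under 3 reads in those females gave 67.7% and 1.53%. In males of the expressing species, 33 of the 50 reached 1 CPM in N. giraulti and 112 of the 162 in N. vitripennis. No share over all genes at 1 CPM or more in the same females is given beside these counts. Genes on in both sexes of a species and near 0 in both sexes of the other numbered 16 for N. giraulti and 63 for N. vitripennis. Expression in females alone was less common, with 1 of the 50 and 15 of the 162 at or under 3 reads in the males of both species.

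The largest differences among genes with whole counts and no overlap between the groups were examined in each library. Nasvi2EG020391 stood at 19.9, 13.5 and 11.2 CPM in N. giraulti females, against 0.02, 0 and 0.0358 CPM in N. vitripennis females, which is 1621 reads against 2. The groups did not overlap, and the ratio of the pooled levels was 777, with a 95% exact counting interval from 215 to 6420 (edgeR adjusted p = 5.39e-05). It was expressed in N. giraulti males as well, at 19.6 CPM ± 3.79 (SD, n = 3), and had 1 read in all N. vitripennis males together.

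At the opposite end, Nasvi2EG023757 had no read in any of the 3 N. giraulti female libraries, against 30, 31 and 41.3 CPM in N. vitripennis females. Set against a floor of 3 reads over the group, it was at least 1190-fold lower in N. giraulti females (edgeR adjusted p = 6.08e-05). Counting error alone allows a smaller ratio, with 964-fold as the lower end of its 95% exact interval. This gene was nearly confined to N. vitripennis females, since N. giraulti males had 3 reads and N. vitripennis males 2 reads over their 3 libraries each. It was not tested in the male libraries alone, and in all 12 libraries its fitted difference of species effects, females minus males, had an edgeR adjusted p of 0.000684.

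By difference in CPM rather than in fold, the first gene on the higher side was Nasvi2EG002174, with 2840, 3060 and 3330 CPM in N. giraulti females and 887, 1290 and 1870 CPM in N. vitripennis females. It ranked 11 among all genes by mean level in N. giraulti females and 60 in N. vitripennis females. The log2 fold change was 1.19 (SE 0.29, edgeR adjusted p = 0.0165), and the lowest N. giraulti library lay above the highest N. vitripennis library. Its call was lost without replicate 2 of the N. vitripennis females (adjusted p = 0.0719), without replicate 3 of the N. giraulti females (0.0531) and when tested against a 2-fold difference (0.49), and its adjusted p spanned 0.00147 to 0.49 in the 18 alternatives. In males it stood at 4750 CPM ± 109 in N. giraulti and 1970 CPM ± 481 in N. vitripennis (edgeR adjusted p = 0.00393).

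On the lower side this gene was Nasvi2EG011591, with 261, 230 and 187 CPM in N. giraulti females and 667, 590 and 467 CPM in N. vitripennis females. The log2 fold change was -1.35 (SE 0.21, edgeR adjusted p = 0.00202), and the groups did not overlap. In a test against a 2-fold change it was not called (adjusted p = 0.126, the highest of the 18 alternatives, which start at 7.68e-07). Males held far less of it and differed the other way, with 4.68 CPM ± 0.822 in N. giraulti and 0.893 CPM ± 0.481 in N. vitripennis (log2 fold change 2.35, SE 0.41, edgeR adjusted p = 0.00279). The species difference in females minus that in males was -3.87 log2 units (SE 0.43, edgeR adjusted p = 0.000157).

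**Figure D3:**
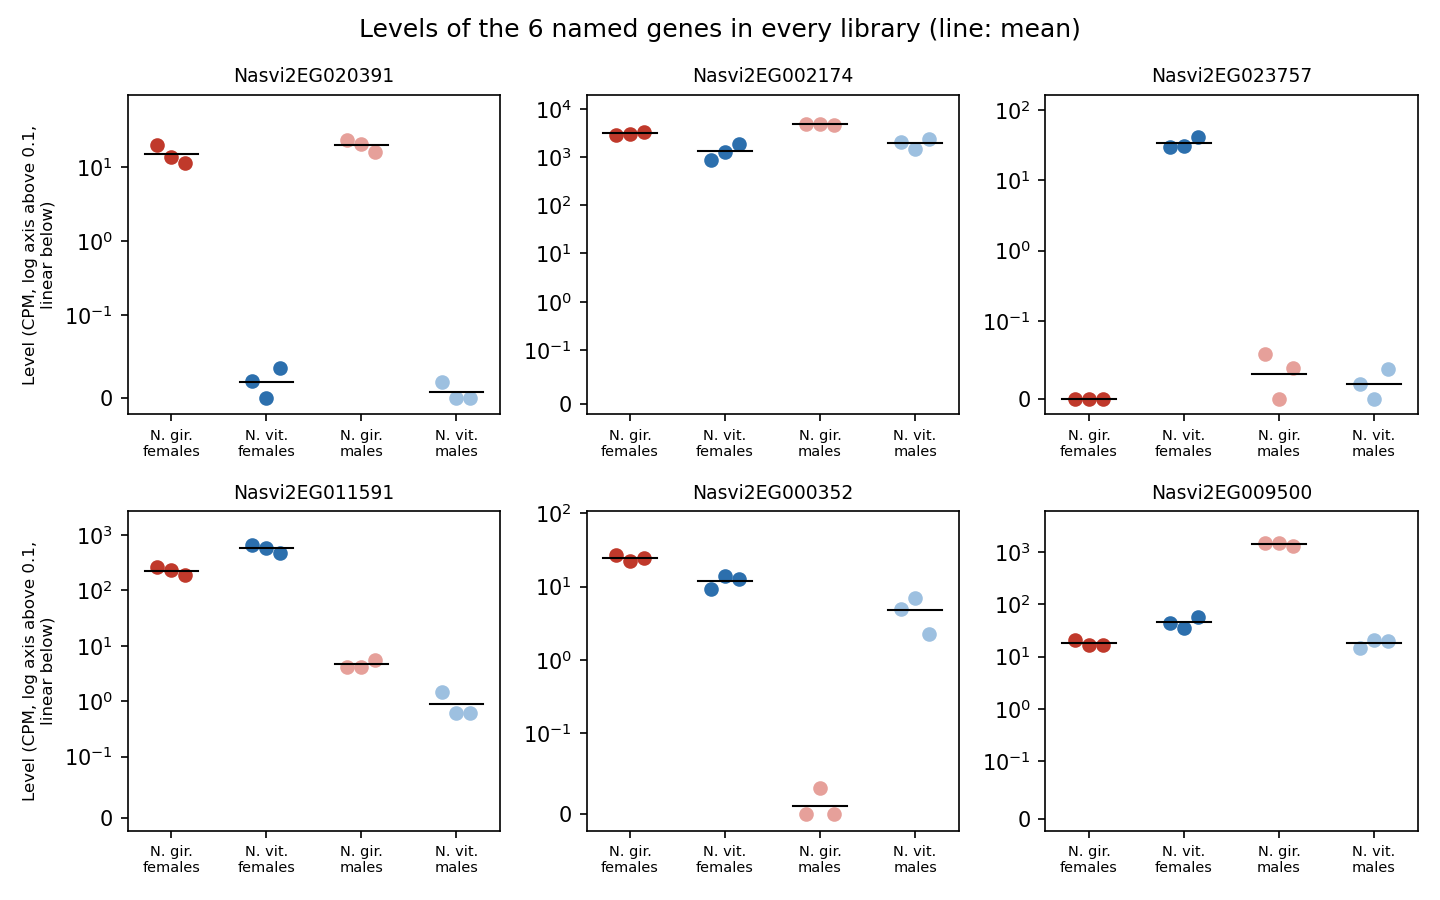
Level in CPM of the 6 genes given by identifier in every library, in N. giraulti females, N. vitripennis females, N. giraulti males and N. vitripennis males. The axis is logarithmic above 0.1 and linear below; points are libraries and lines are means. In females the species do not overlap in any of the 6 genes; Nasvi2EG020391 and Nasvi2EG023757 are near 0 in females of a single species.

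Genes were then grouped by their mean level in the 6 male libraries, which took no part in the female comparison. Such classes share more than male level: a gene weak in males is mostly weak in females too, with a median female level of 1.42 CPM in the class under 0.1 CPM and 38.5 CPM in the class at 10 to 100 CPM. A weak gene can also enter the test through the species in which it is high, which by itself raises the share called, so the shares are given as a description. Among 243 genes under 0.1 CPM in males, 52 (21.4%) were called higher and 108 (44.4%) called lower in N. giraulti females, and their median log2 fold change was -1.04. Among 1912 genes at 0.1 to 1 CPM in males 46.9% were called, among 4430 genes at 1 to 10 CPM 29.1%, and among 6340 genes at 10 to 100 CPM 13.7%, beside 24% of all genes tested.

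Genes abundant in males were less often called lower. Of 1851 genes at 100 CPM or more in males, 259 (14%) were higher in N. giraulti females and 65 (3.51%) lower. All genes tested gave 13% higher and 10.9% lower, so the class departed from them mainly in its lower share. The median log2 fold change of the class was 0.14, and -0.05 with all 12 libraries in the fit. Higher genes outnumbered lower genes in this class under the 3 other scalings of the female libraries, with the replicate block (575 and 158) and in replicates 2 and 3 alone. With all 12 libraries in the fit 207 were higher and 155 lower. In the class under 0.1 CPM, lower genes outnumbered higher ones under all of these settings, with 101 to 118 genes lower and 47 to 53 higher.

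**Figure D4:**
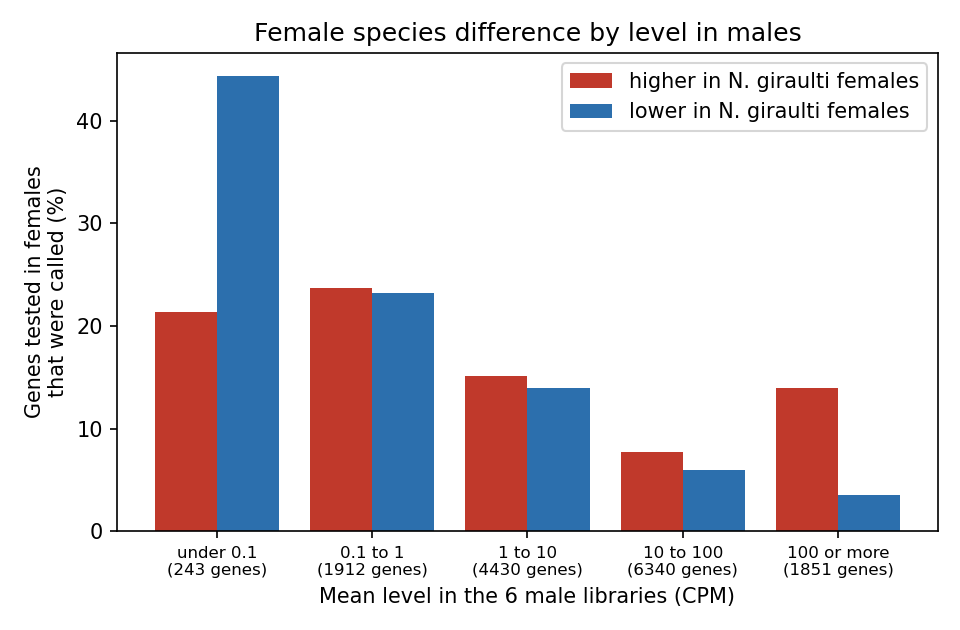
Share of the genes tested in females (percent) that were called higher (red) or lower (blue) in N. giraulti females, by mean level of the gene in the 6 male libraries (CPM); gene numbers are under each class. Lower genes reach 44.4% in the class under 0.1 CPM and 3.51% in the class at 100 CPM or more, where higher genes reach 14%. Of all genes tested, 13% were called higher and 10.9% lower.

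Whether males of the species differed in the same genes was asked in the 6 male libraries, which share none with the female comparison. In N. giraulti males 2122 genes were called higher and 2441 called lower, 29.6% of 15436 genes tested. Of the genes called in females, 1090 were higher in N. giraulti in both sexes and 945 lower in both. These are 56.7% of the higher and 58.5% of the lower calls in females, and 51.4% of the higher and 38.7% of the lower calls in males. Of 2121 genes called in both sexes, 95.9% had the same direction. The genes called higher in females and tested in males had a median log2 fold change of 1.94 in females and 1.44 in males. Those called lower had medians of -2.37 in females and -2.22 in males, beside 0 and 0.01 for all 14074 genes tested in both sexes. A positive value in males was found for 89.7% of the genes called higher in females and for 13.1% of those called lower. Over these 14074 genes, fold changes in females and in males had, on the log2 scale, a Pearson r of 0.803 and a Spearman rho of 0.609, as a description only, since genes are not independent and the libraries of both sexes share replicate numbers. A further 702 genes passed the filter in females and not in males. Of these, 172 (24.5%) were called higher and 225 (32.1%) called lower in N. giraulti females, beside 13% and 10.9% of all genes tested, and such genes could pass through a single species in which they are high.

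**Figure D5:**
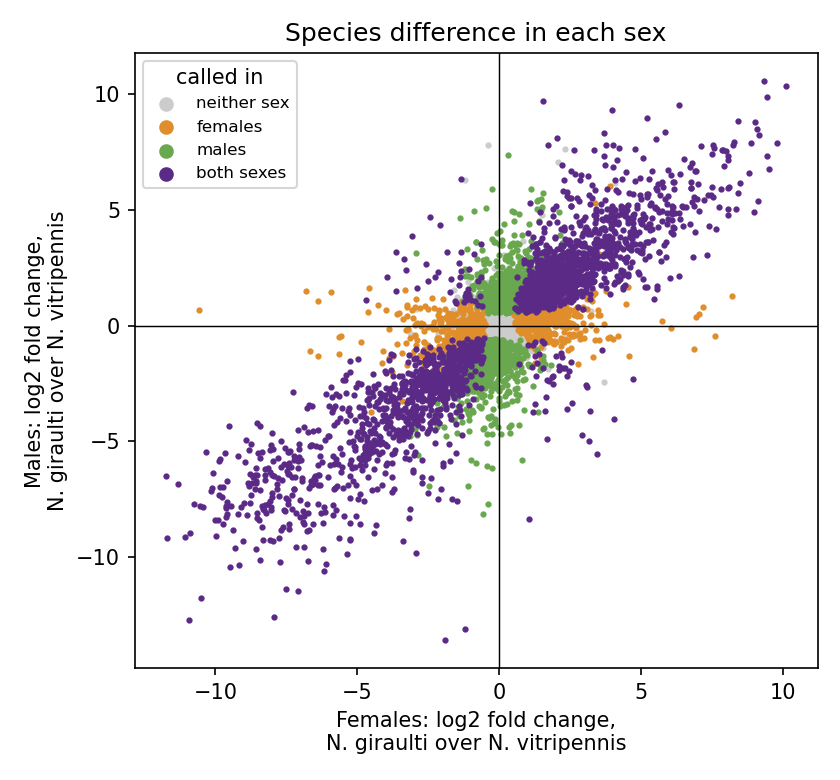
Log2 ratio of the fitted levels, N. giraulti over N. vitripennis, in females (horizontal) and in males (vertical) for 14074 genes tested in both sexes, coloured by the sex in which the gene was called. The 2121 genes called in both sexes lie mostly in the quadrants of equal direction (95.9%).

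A gene called in a single sex is not thereby shown to differ between the sexes, so the difference of the species effects was tested in all 12 libraries. In 451 genes the species difference was shifted upward in females relative to males and in 710 genes downward, 2.73% and 4.29% of 16536 genes tested and 7.02% together (edgeR quasi-likelihood test of the difference, adjusted p under 0.05). The median of this difference over all genes was -0.12 with scaling over all libraries and 0.07 with scaling within each sex. With scaling within each sex 553 genes were shifted upward and 516 downward, so the excess of downward shifts turned with the scaling. With the replicate block the counts were 950 and 1837.

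Opposite species differences in the sexes were found for 86 of the 2121 genes called in both sexes, with 14074 genes tested in both. Of the 86, 44 were higher in N. giraulti females and lower in N. giraulti males and 42 were the reverse. Those with whole counts, at least 10 CPM, no overlap between the female groups and a called difference of differences numbered 16 and 24. Among these, the gene with the largest upward shift was Nasvi2EG000352, at 26.7, 22.3 and 24.2 CPM in N. giraulti females and 9.22, 13.9 and 12.5 CPM in N. vitripennis females. In males the order was the reverse and close to all or none, with 1 read over the 3 N. giraulti libraries and 4.75 CPM ± 2.38 (SD, n = 3) in N. vitripennis. The log2 fold change was 1.04 (SE 0.26) in females and -8.34 (SE 0.83) in males, with edgeR adjusted p of 0.0192 and 0.000168, and the difference was 9.21 (SE 0.81, adjusted p = 3.28e-05). The female call was weak: it was lost without any single N. giraulti female replicate (adjusted p = 0.0523, 0.0531 and 0.0671), with all 12 libraries in the fit (0.113) and in the test against a 2-fold change (0.842), and the adjusted p spanned 0.000678 to 0.842 in 18 alternatives.

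Among the genes called in opposite directions in the sexes, the largest downward shift was that of Nasvi2EG009500, at 20.7, 16.6 and 16.5 CPM in N. giraulti females and 44.3, 34.5 and 57.9 CPM in N. vitripennis females. The log2 fold change in females was -1.34 (SE 0.26, edgeR adjusted p = 0.00561). It was not called in the test against a 2-fold change (adjusted p = 0.199, the highest of its 18 alternatives, which start at 1.27e-05). In N. giraulti males the gene reached 1520, 1490 and 1310 CPM, against 14.7, 20.4 and 19.5 CPM in N. vitripennis males, a log2 fold change of 6.31 (SE 0.26, edgeR adjusted p = 1.51e-05). The difference of the species effects was -7.84 (SE 0.34, edgeR adjusted p = 1.34e-07).

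Called genes with consecutive identifiers tended to share a direction. The table gives no positions, and the order of identifiers was used in their place, with genes of fractional counts left out because neighbouring rows can share reads. Of 536 pairs of called genes with consecutive identifiers, 382 (71.3%) had the same direction, 179 of them both higher and 203 both lower in N. giraulti females. Of 300 pairs of called genes 100 identifiers apart, 48% had the same direction. After a gene called lower the next identifier was also called lower in 28% of cases, against 11.4% for the identifier 100 further on. After a gene called higher it was also higher in 22.4%, against 13.8%.

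Runs of at least 3 consecutive called genes in the same direction numbered 23 on the higher side, with 70 of the 1923 higher genes. On the lower side 31 runs held 103 of the 1616 lower genes. Whether this exceeds the number without any order was not tested. The longest run on the higher side held 4 genes, with means of 120 to 511 CPM in N. giraulti females and 48.5 to 185 CPM in N. vitripennis females. On the lower side a pair of runs held 5 genes each. In the first, means were 0.0463 to 8.56 CPM in N. giraulti females and 6.4 to 37.8 CPM in N. vitripennis females. In the second all genes were nearly without reads in N. giraulti females, at 0 to 0.0277 CPM, and stood at 1.85 to 17.2 CPM in N. vitripennis females. Every gene of these 3 runs was tested in males and called there in the same direction. Of all female calls tested in males, 1090 of 1751 higher and 945 of 1391 lower genes were. The 3 runs were picked as the longest. Among the genes with whole counts that were on in N. vitripennis females and near 0 in N. giraulti females, 25 of 129 had a neighbour by identifier in the same list and 4 had a member 100 identifiers apart, and on the N. giraulti side 6 of 43 and 0 of 43 did.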

How the data were processed

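The authors deposited a single table of estimated counts per gene (expected counts), not scaled to library size. Per the submitters' processing notes, which give neither role nor order, the tools were TopHat2 2.0, HTSeq, Cufflinks 2.1.0, bedtools, Trimmomatic, FastQC, edgeR and CASAVA 1.8.2. The build, the annotation and the reference used for N. giraulti reads were not given in the sources used here. Libraries were made from 2 ug of total RNA with an Illumina TruSeq kit, per the labels' protocols, which call the replicates independent batches.

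Fractional values occurred in 3372 genes (13.9%) of the deposited counts, 17.3% of the genes tested. Reads may have been divided between rows, and the levels of such genes are uncertain. Counts were rounded to whole numbers. No row lacked a gene name. None of the identifiers matched the RefSeq name table of 15501 genes (0 matched), so no gene list was run and each comparison names no more than 2 identifiers per direction.

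The 6 female libraries were filtered with filterByExpr (minimum count 10), scaled with trimmed-mean factors (TMM) and fitted with a mean per group in edgeR 4.0.16 (R 4.3.3, robust quasi-likelihood). They were fitted alone because scaling factors from both sexes are set against a library whose composition differs between the sexes. The median near 0 is no support for this choice, since scaling within the 6 libraries largely places it there. Benjamini-Hochberg adjustment was made over all genes tested, with calls under 0.05. Males were fitted likewise, and the difference of the species effects in all 12 libraries. The SE of a log2 fold change was its size over the square root of F. CPM values use the scaling of each sex. The procedure was run on simulated counts without a difference between replicate numbers and with changes only in genes at 1 CPM or more. That run gives no information on the difference between replicate numbers or on changed genes near 0.

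In a female library 3 counts, used as a floor, equal 0.06 to 0.123 CPM, and intervals and floors cover counting error only. Replicates differed by more than sampling noise (chi-square per degree of freedom of 40.1 to 271). The labels do not say that a replicate number marks a shared batch. Deviations from the group means of libraries with the same number correlated across genes between the species, with r of 0.596, 0.265 and 0.567. Libraries with unlike numbers gave r of -0.553 to 0.181. The pair numbered 2 (0.265) was little above the crossed pairs of numbers 2 and 3 (0.112 and 0.181). Blocking by number was thus an alternative drawn from the data, not from the design.

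Genes given by identifier had whole counts, a call, no overlap between the female groups and at least 10 CPM in the higher group. In each direction these were the gene with the largest fold change and that with the largest difference in CPM among those at least 2-fold apart, and for the sexes the largest difference of differences among genes called in opposite directions. The comparison, rules and tests were chosen with earlier results of these data known. Alternatives were other scalings, filters and tests (among them DESeq2 1.42.0), the replicate block, whole-count genes, fewer libraries and all 12 libraries in a single fit.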

Additional observations from a re-analysis of the deposited data

Results flagged for a closer look

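The species difference itself differed between the sexes in a test of that difference: in 451 genes it was shifted upward in females relative to males and in 710 downward (edgeR quasi-likelihood test). Which direction was more frequent turned with the scaling, as given above. Among the genes given by identifier the difference of the species effects was 9.21 log2 units for Nasvi2EG000352, higher in N. giraulti in 3 of 3 female libraries and lower in N. giraulti in 3 of 3 male libraries, and -7.84 for Nasvi2EG009500, with the directions exchanged. Both were past the threshold in all 23 alternatives, with values of 8.37 to 11.34 for Nasvi2EG000352 and -8.02 to -7.42 for Nasvi2EG009500. Both were picked for their large difference among genes past this same test in these libraries, so this is no independent support. The female call of Nasvi2EG000352 was lost in 5 of 18 alternatives.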

How the results depend on the processing

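The numbers of genes higher and lower in N. giraulti females were 1215 and 965 with genes averaging 1 CPM or more, where fewer genes were tested, 940 and 918 in the test against a 2-fold change, and 3308 and 3090 with the replicate block. With all 12 libraries in the fit 3042 were lower. Leaving out single female libraries gave 1371 to 2089 higher and 1222 to 1693 lower. The DESeq2 test gave 2115 and 1907, and no filter 2488 and 2146. Genes shifted upward and downward in females against males numbered 773 and 414 with library size alone, 199 and 264 against a 2-fold change, 950 and 1837 with the replicate block, and 314 to 437 and 441 to 679 without single libraries; the downward count was 464 without replicate 2 and 441 without replicate 3 of the N. vitripennis males and 470 without replicate 3 of the N. giraulti females. Where not stated, the cause was not tested. Genes on in N. giraulti females and near 0 in N. vitripennis females numbered 16 at 0 reads, 6 at a mean of 5 CPM or more, 106 in replicates 2 and 3 alone and 50 to 106 without single libraries. Those on in N. vitripennis females numbered 59 at 0 reads, 46 at 5 CPM and 164 to 220 without single libraries. With the replicate block no gene given by identifier lost its call. Upper-quartile scaling moved the share called in the class under 0.1 CPM in males from 65.8% to 63%, and the other classes by less. With all genes in place of whole-count genes, 72.7% of neighbouring pairs had the same direction, beside 71.3%. No direction of a gene given by identifier was reversed. Chosen after seeing the data were the scaling within each sex, the scaling factors of all 12 libraries alone, the fewer libraries for genes near 0 in a species, and the settings beyond upper-quartile factors for the male-level classes and the most abundant genes.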
